A study of Mus musculus with 4 samples.

Results

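The nuclear-encoded genes of oxidative phosphorylation were described across the cell types of mouse pancreatic islets. The set comprised every listed gene whose symbol begins with Nduf followed by a, b, c, s or v, with Uqcr, with Cox4 to Cox8 or with Atp5, together with Sdha, Sdhb, Sdhc and Sdhd. Symbols ending in -ps were left out. Of 32285 listed genes, 94 matched and 93 were members after that exclusion. They were 36 subunits of complex I, 8 complex I assembly factors, 4 subunits of complex II, 8 of complex III, 20 of complex IV and 17 of complex V. Ndufa4 and Ndufa4l2 were counted with complex IV despite their names, since the NDUFA4 protein is a cytochrome c oxidase subunit. All 93 members had at least 1 read in the data.

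Oxidative phosphorylation takes place in the inner mitochondrial membrane. Complexes I and II pass electrons from NADH and succinate to ubiquinone, complex III passes them on to cytochrome c, and complex IV passes them to oxygen. The proton gradient built by complexes I, III and IV drives complex V, the ATP synthase. Most subunits are encoded in the nucleus, and a small set of core subunits is encoded by mitochondrial DNA, so that all the complexes except II are assembled from both. In pancreatic beta cells, mitochondrial ATP made from glucose closes potassium channels at the plasma membrane and so couples glucose to insulin release. XBP1 switches on genes of the endoplasmic reticulum when unfolded proteins build up there.

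The 4 samples were dispersed pancreatic islet cells from 5-week-old mice, given in the series title as NOD mice, a strain that develops autoimmune diabetes. There were 2 samples labelled Xbp1{beta}-/- and 2 labelled Xbp1fl/fl, and tamoxifen was injected in all 4, including the floxed controls. The labels used here name neither the Cre driver nor the deleted part of Xbp1. The islets were picked by hand, kept in culture overnight and dissociated with accutase before droplet single-cell RNA sequencing.

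All 4 libraries were deposited in 1 matrix, in which the number at the end of a cell barcode (1 to 4) tells the libraries apart. No sample label contains such a number as its own name, so the genotype of each library is unknown. No comparison of Xbp1{beta}-/- with Xbp1fl/fl islets was made, and no p-value is given. Values are shown for each library, the library numbers carry no order, and cell types were compared within a library. A difference between cell types was called when it reached 1.5-fold in the same direction in all 4 libraries.

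Of 19987 barcodes, 16146 were kept, with at least 500 genes and at most 20% of molecules from mitochondrial DNA. Beta cells were taken as those with at least 5% of their unique molecular identifiers (UMIs, the counted RNA molecules) from Ins2, and were split at 0.5% of UMIs from Spp1, the gene of the secreted protein osteopontin. Alpha cells had at least 5% from Gcg and delta cells at least 3% from Sst. All other cells formed a mixed class. Cells past more than 1 hormone threshold, 631 of those kept, were set apart. The classes held 1082 Spp1-high beta cells, 5803 Spp1-low beta cells, 2046 alpha cells, 1383 delta cells and 5201 other cells. A class is a range of a measured share, not a proven cell type. Near a threshold were 223 cells for Ins2 (4% to 6.25%), 129 for Gcg, 212 for Sst (2.4% to 3.75%) and 760 beta cells for Spp1 (0.25% to 1%).

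Libraries differed in makeup. Spp1-high beta cells numbered 355, 131, 377 and 219 in libraries 1 to 4, Spp1-low beta cells 234, 3211, 356 and 2002, and other cells 2498, 475, 1959 and 269. Libraries 1 and 3 were rich in other cells and libraries 2 and 4 in Spp1-low beta cells. Across the 4 libraries 45 barcode sequences occurred in more than 1. The class labels were checked against marker genes other than hormones. The 5 beta cell markers Mafa, Slc2a2, G6pc2, Nkx6-1 and Ucn3 summed to 1699 to 2391 CPM (UMIs per 1000000 UMIs, without hormone genes) in Spp1-high beta cells and 1809 to 3648 in Spp1-low beta cells, against 39.1 to 117 in alpha cells, 30.6 to 151 in delta cells and 37.7 to 92.8 in other cells. Alpha cell markers summed to 5992 to 8689 CPM in alpha cells and delta cell markers to 8721 to 12729 in delta cells. RNA of other types was also read: in libraries 1 and 3 the alpha list reached 4322 and 4285 CPM in Spp1-high and 3118 and 3295 CPM in Spp1-low beta cells, nearly all from Ttr. In library 1, 5 acinar genes reached 4197 CPM in Spp1-high beta, 3105 CPM in delta and 21205 CPM in other cells. Ins2 reached 1743, 18451, 4752 and 9536 CPM in alpha cells, relative to the total without hormones. The part of such RNA in the values of the members was not tested. Xbp1 had 56.4, 209, 46.3 and 212 CPM in Spp1-high beta cells and 128, 228, 109 and 222 CPM in Spp1-low beta cells of libraries 1 to 4. It was not used to assign genotypes, and with the deleted part not given, its reads check no label.

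Levels are CPM: UMIs summed over the cells of a class in a library, per 1000000 UMIs of that class and library after removing 7 hormone genes. Values on the full total, with those genes inside it, are given beside them. Hormone RNA fills a large and unequal share of an endocrine cell's UMIs, and this choice of total decides several directions below. A class total held 2268885 to 58621031 UMIs per library. The 95% exact Poisson intervals cover counting error only. UMI counts were not scaled to transcript length, so a member's level is compared between classes and never with another member's.

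Taken as one quantity, the 93 members made up about 3% of non-hormone RNA in beta cells and less in alpha and other cells. Their summed level was 32997, 27308, 33189 and 27296 CPM in the Spp1-high beta cells of libraries 1 to 4. In Spp1-low beta cells it was 30407, 30220, 30806 and 29585 CPM. Alpha cells had 21853, 23069, 22124 and 24038 CPM, delta cells 27107, 29379, 27649 and 29354 CPM, and other cells 19123, 19872, 20431 and 19260 CPM. The alpha and other cells of every library lay below both beta classes and the delta cells of every library, and the beta and delta ranges overlapped. On the full total this order was not kept: the medians over libraries were 16696 CPM in Spp1-high beta, 14418 in Spp1-low beta, 16088 in alpha, 20903 in delta and 18019 in other cells. The interval of 1 such sum was narrow, 21667 to 22039.5 CPM in the alpha cells of library 1.

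The complexes did not all follow that pattern to the same degree. Complex I, the NADH dehydrogenase, summed to 10503, 10101, 10566 and 9901 CPM in Spp1-low beta cells, against 6773, 7220, 6910 and 7517 CPM in alpha cells. Complex III, the cytochrome c reductase, had 3078, 3381, 3069 and 3362 CPM in Spp1-low beta cells and 1892, 2025, 2015 and 2082 CPM in alpha cells. For complex V the values were 9169, 9051, 9240 and 8784 CPM in Spp1-low beta cells and 7660, 8124, 7850 and 8404 CPM in alpha cells. The ATP synthase, as a share that does not depend on the total, took 29.7% to 30.2% of the members' UMIs in Spp1-low beta cells and 35.0% to 35.5% in alpha cells, with no overlap between the libraries. Complex IV, the cytochrome c oxidase, summed to 6813 to 7136 CPM in Spp1-low beta cells and 4788 to 5415 CPM in alpha cells. The 8 assembly factors of complex I summed to 334 to 382 CPM in Spp1-low beta cells and 248 to 269 CPM in alpha cells. Complex II, which is also an enzyme of the tricarboxylic acid cycle and has no subunit from mitochondrial DNA, was also fairly close between these classes, at 392 to 412 CPM in Spp1-low beta cells and 314 to 351 CPM in alpha cells. Scaled to the full total, complex I had 5531, 4267, 5808 and 4292 CPM in Spp1-low beta cells and 4993, 5029, 4807 and 5324 CPM in alpha cells, so that libraries 1 and 3 were higher in beta cells and libraries 2 and 4 lower, while complex V was lower in beta cells in all 4.

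**Figure D1:**
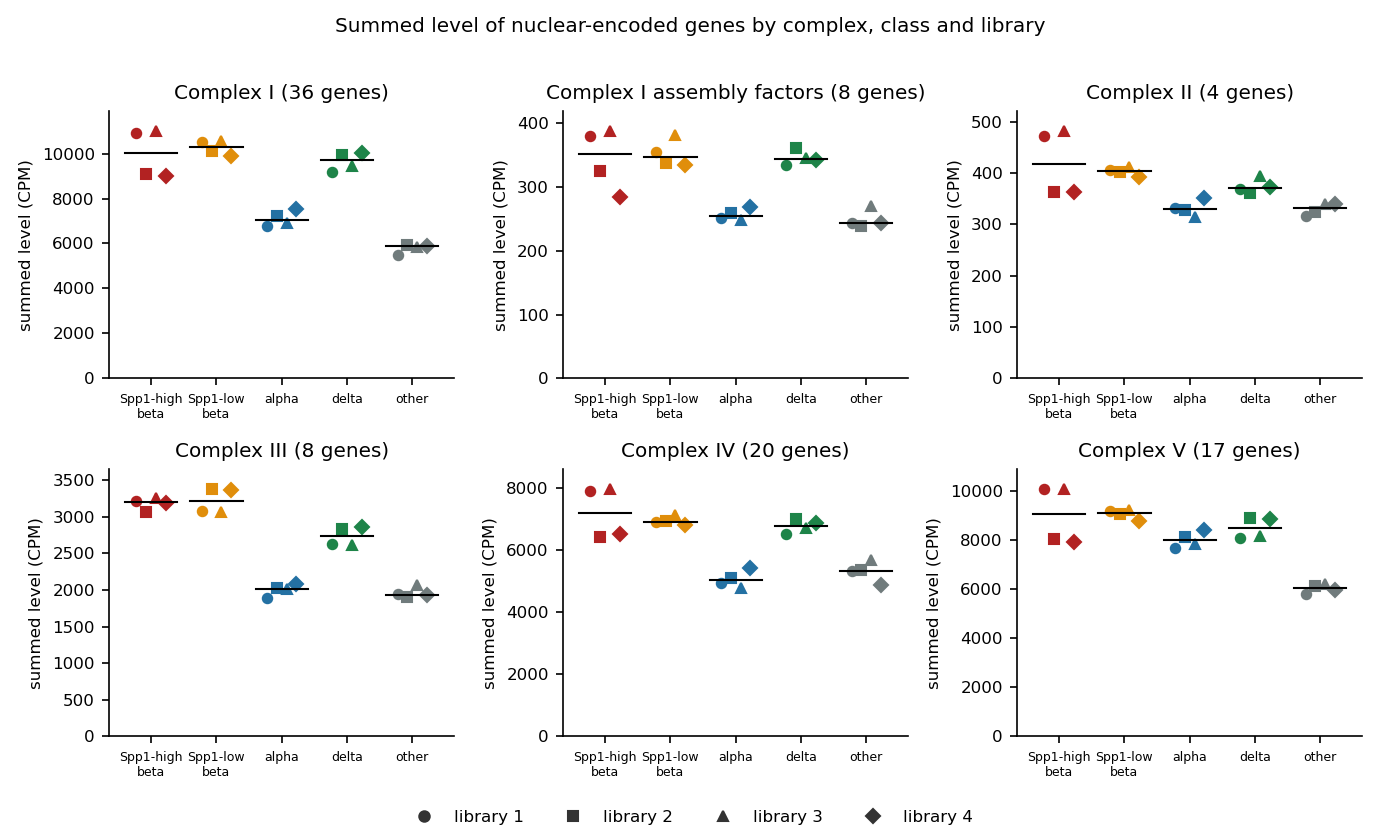
Summed level of the members of each complex (CPM, hormone genes outside the total, vertical axis from 0) in the 5 cell classes. Each point is 1 library, marked by its shape, and each bar is the median over 4 libraries. Complex I reached 9901 to 10566 CPM in Spp1-low beta cells and 6773 to 7517 CPM in alpha cells, while complex V was closer between them. On the full total the beta sums were not the higher ones in every library.

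The first comparison set Spp1-low beta cells against alpha cells, the glucagon cells of the islet. Of 89 members with enough counts, 15 were called higher in beta cells and none lower: 7 of complex I, 3 of III, 4 of IV and 1 of V. This is 16.9% of the members. Over all genes 6.17% were called higher and 4.9% lower, but the members are abundant genes, and of all genes at 100 CPM or more 16.6% were called higher, beside 14 of 72 such members. The share called is thus near the background for genes of this level. The median log2 ratio of the 72 members at that level was 0.46, 0.40, 0.47 and 0.29 in libraries 1 to 4, against 0.17, 0.18, 0.15 and 0.16 for all genes at it. Of the 72 members, 60 were above 0 in every library, 83.3%, against 49.5% of the genes. Most members lay above 0, and few were past 1.5-fold. The limit of 100 CPM was chosen after the data had been seen.

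The sign of that median depends on the total. The median log2 ratio over the 89 members was 0.40 with hormone genes outside the total and -0.15 with them inside it, where 3 members (Cox6a2, Cox5a and Uqcrq) were called higher and 1 (Atp5e) lower, against 1.97% of all genes higher and 10.9% lower on that total. The median of all genes was 0.00 with hormone genes outside the total and -0.28 with them inside it, so the members' median lay above it by 0.40 and by 0.14. A change of total scales every gene of a class in a library alike, but the 10 CPM added before each ratio damps the shift of low genes. The fall from 0.40 to 0.14 therefore cannot be read as a change of the members against other genes. Depth per cell also moved with the classes, with a median of 37237.5 to 48098 UMIs in Spp1-low beta cells and 11251 to 12977 in alpha cells. The noncoding RNA Gm42418, which overlaps a ribosomal RNA repeat, took 19242 to 31492 CPM in alpha cells and 3005 to 9452 CPM in Spp1-low beta cells. The part of either in the ratios was not tested.

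The members that differed most were single subunits of complexes I, III and IV. Ndufc2, a small accessory subunit of complex I, lies on chromosome 7 (97400003 to 97407802, plus strand, GRCm38). It had 738, 599, 697 and 611 CPM in Spp1-low beta cells, against 198, 242, 220 and 231 CPM in alpha cells. Every beta value was above every alpha value, and the log2 ratio was 1.85, 1.28, 1.62 and 1.37 in libraries 1 to 4. Uqcrq, a small subunit of complex III on chromosome 11 (53427922 to 53430831, minus strand), had 917, 1259, 884 and 1252 CPM in Spp1-low beta cells and 383, 462, 431 and 459 CPM in alpha cells. Its beta values were also all higher, those of libraries 2 and 4 most, with log2 ratios of 1.24, 1.43, 1.02 and 1.43.

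Cox5a, a subunit of complex IV that faces the matrix, lies on chromosome 9 (57521274 to 57532426, plus strand). It had 409, 469, 420 and 503 CPM in Spp1-low beta cells, against 164, 139, 157 and 166 CPM in alpha cells, without overlap. Its median log2 ratio was 1.46. Both Ndufc2 and Cox5a differed from alpha cells, but Cox5a was near its beta level in the mixed class, at 516, 517, 557 and 442 CPM, whereas Ndufc2 had 182, 206, 215 and 194 CPM there. The exons of Cox5a overlap those of Gm26631 on the opposite strand, and the sources used here do not say whether reads were counted by strand. In all, 29 members have such an overlap, and none overlaps an exon of another listed gene on its own strand.

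Cox6a2 encodes the heart and skeletal muscle form of complex IV subunit 6A, whose widely expressed form comes from Cox6a1. It lies on chromosome 7 (128205435 to 128206387, minus strand), with an opposite-strand overlap with Itgad. Cox6a2 had 16.5, 27.5, 16.4 and 25.2 CPM in Spp1-low beta cells, against 0, 0.866, 0.319 and 0.477 CPM in alpha cells. The alpha cells of all 4 libraries together held 10 UMIs of it, and in library 1, where there were none, 3 counts would be 1.24 CPM. In delta cells it had 0.722, 1.49, 1.53 and 3.91 CPM and in other cells 3.45, 6.75, 5.57 and 0.441 CPM. Spp1-high beta cells had 6.28, 28.0, 18.6 and 26.3 CPM. The muscle form was thus read in the beta cells of every library at a low level and was close to the counting floor in alpha cells. The ratios for this gene, 1.41, 1.79, 1.35 and 1.75 against alpha cells, are understated by the 10 CPM added to both values. Cox6a1 had 288, 334, 321 and 312 CPM in Spp1-low beta cells and 269, 280, 242 and 269 CPM in alpha cells, a smaller difference than that of the muscle form.

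The other called members included Ndufab1, which encodes the mitochondrial acyl carrier protein, Ndufa12, Ndufb8, Ndufb9 and Ndufv2 of complex I, Uqcrb and Uqcrc2 of complex III, Cox7a2l and Cox8a of complex IV, and Atp5f1, the b subunit of the ATP synthase stalk. Their median log2 ratios ran from 0.71 for Uqcrb to 0.99 for Ndufa12. With hormone genes inside the total, Ndufc2 had log2 ratios of 1.36, 0.56, 1.27 and 0.67 against alpha cells, Uqcrq 0.75, 0.71, 0.68 and 0.72, Cox5a 0.78, 0.96, 1.02 and 0.84, and Cox6a2 0.90, 1.03, 0.90 and 1.02. All of these 4 stayed above 0 in every library.

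One member lay on the other side of 0 in every library. Atp5e, the epsilon subunit of the catalytic head of the ATP synthase, lies on chromosome 2 (174461072 to 174464105, minus strand). It had 1163, 1116, 1251 and 1010 CPM in Spp1-low beta cells, against 1580, 1597, 1715 and 1627 CPM in alpha cells. The values did not overlap, but the log2 ratios of -0.44, -0.51, -0.45 and -0.68 did not all reach 1.5-fold. On the full total it was called lower in beta cells.

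**Figure D2:**
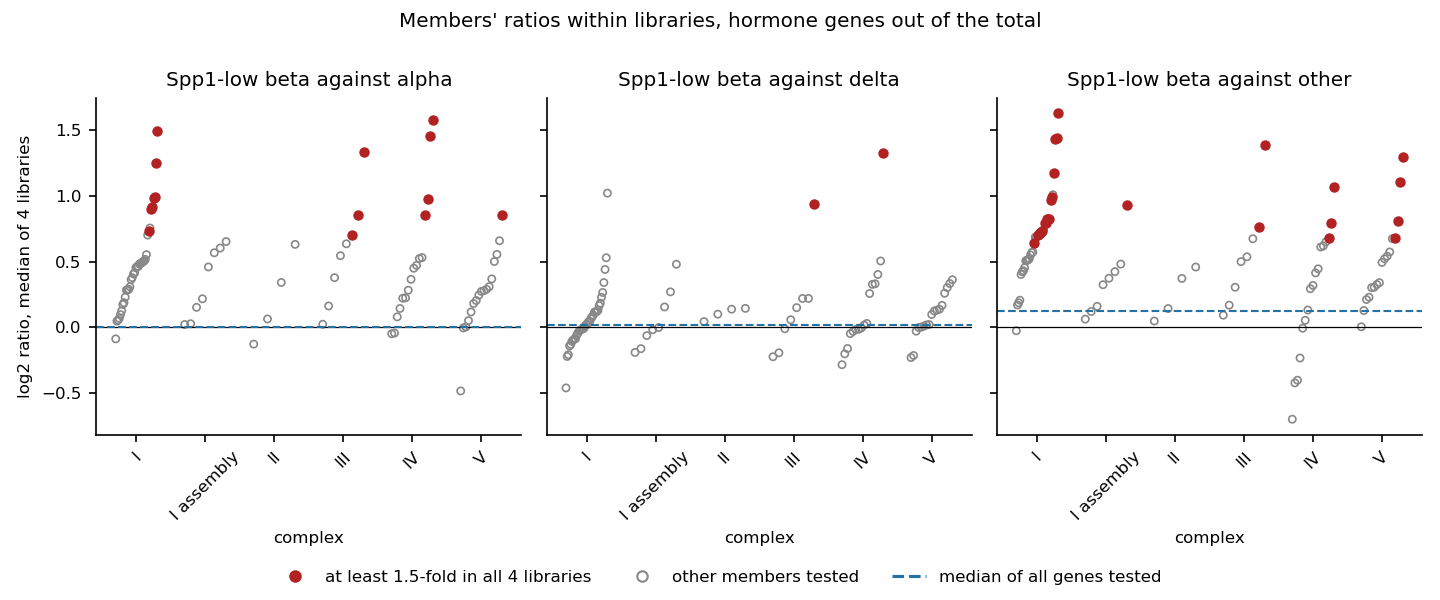
Log2 ratio of Spp1-low beta cells over alpha, delta and other cells for each member tested, grouped by complex. Each point is 1 member at its median over 4 libraries, filled where it was past 1.5-fold in all 4, and the dashed line is the median of all genes tested. Points of complexes I and III lie mostly above 0 against alpha and other cells and around 0 against delta cells, with hormone genes outside the total; inside it the medians over all members are -0.15, -0.27 and -0.52 against alpha, other and delta cells.

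Against delta cells the members' sums were close. Of 89 members, 2 were called higher in Spp1-low beta cells, Cox6a2 and Uqcrq, and none lower, against 3.65% of all genes higher and 3.84% lower. Of genes at 100 CPM or more, 8.2% were called higher, beside 1 of 73 members. The median log2 ratio of the members was 0.10, 0.00, 0.09 and 0.01 in libraries 1 to 4, and 34 members were above 0 and 11 below 0 in every library. Of all 12974 genes tested, 4163 were above 0 and 3530 below 0 in every library. The share above 0 was 38.2% of members and 32.1% of all genes. Among those at 100 CPM or more it was 38.4% of members and 38.9% of all genes, so the count above 0 was near the background. Scaled to the full total, the median was -0.52, where that of all genes was -0.30. The added 10 CPM damps the shift of low genes, so the distance between these medians cannot be read as a change of the members against other genes. Cox6a2 was called higher on the full total, and 5 members (Ndufb3, Ndufa4, Atp5h, Uqcrb and Ndufs6) were called lower. Of all genes 1.33% were called higher and 10.1% lower on that total.

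Uqcrq had 493, 598, 518 and 627 CPM in delta cells, below each of the Spp1-low beta values given above. When the full total was used, Uqcrq kept ratios above 0 against delta cells, of 0.34, 0.31, 0.31 and 0.27. Ndufs6, an accessory subunit of the NADH-binding part of complex I, stood on the other side, with 256, 239, 268 and 217 CPM in Spp1-low beta cells and 338, 350, 338 and 347 CPM in delta cells. Its log2 ratio was -0.38, -0.53, -0.32 and -0.65. Cox4i1 and Uqcrh were also below 0 in every library against delta cells with hormone genes outside or inside the total, with medians of -0.28 and -0.22 outside it.

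Against the mixed class of other cells the differences were broader. Of 90 members, 27 were called higher in Spp1-low beta cells, 30.0%, and none lower. Over all genes 10.9% were called higher and 9.43% lower, and of genes at 100 CPM or more 25.7% were called higher, beside 25 of 73 members, 34.2%. Complex I held 17 of the 27, of which 16 were among its 29 accessory subunits and 1 among its 7 core subunits. The median log2 ratio was 0.68 over complex I, 0.33 over complex IV, 0.28 over complex II and 0.43 over complex V. The median was 0.49 over the members and 0.13 over all genes with hormone genes outside the total, and -0.27 over each with them inside it. The added 10 CPM damps the shift of low genes, so this match cannot be read as a change of the members against other genes. On the full total none was called higher and 6 were called lower (Ndufa10, Uqcrh, Cox4i1, Cox5a, Uqcrc1 and Atp5d). Of all genes 2.34% were called higher and 19.4% lower on that total.

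Ndufa1, an accessory subunit encoded on the X chromosome (37187588 to 37191163, minus strand), had 750, 363, 810 and 353 CPM in Spp1-low beta cells, against 157, 201, 188 and 207 CPM in other cells. The beta values were all higher, and those of libraries 1 and 3 were the farthest from the other cells. Its log2 ratio was 2.18, 0.82, 2.05 and 0.74, and with hormone genes inside the total it was 1.29, -0.17, 1.24 and -0.10. Ndufv3, an accessory subunit at the NADH-binding end of complex I, had 335, 339, 379 and 298 CPM in Spp1-low beta cells and 99.7, 137, 117 and 139 CPM in other cells, without overlap. On the full total its ratios were 0.78, 0.26, 0.81 and 0.21, still above 0.

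Atp5g1 encodes subunit c of the ATP synthase ring. It had 809, 1084, 758 and 1086 CPM in Spp1-low beta cells, against 362, 382, 378 and 392 CPM in other cells, and with hormone genes inside the total its log2 ratios were 0.25, 0.46, 0.17 and 0.58. Its paralogs Atp5g2 and Atp5g3 encode the same mature protein and were closer between the classes: Atp5g2 had 654 to 734 CPM in Spp1-low beta cells and 480 to 579 CPM in other cells, and Atp5g3 had 367 to 427 CPM in Spp1-low beta cells and 267 to 283 CPM in other cells. Scaled to the full total, both were below 0 in every library, from -0.72 to -0.42 for Atp5g2 and from -0.41 to -0.27 for Atp5g3. Atp5g1 had 521, 650, 547 and 669 CPM in alpha cells and 765, 1082, 790 and 1132 CPM in delta cells, the second being close to its beta values.

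**Figure D3:**
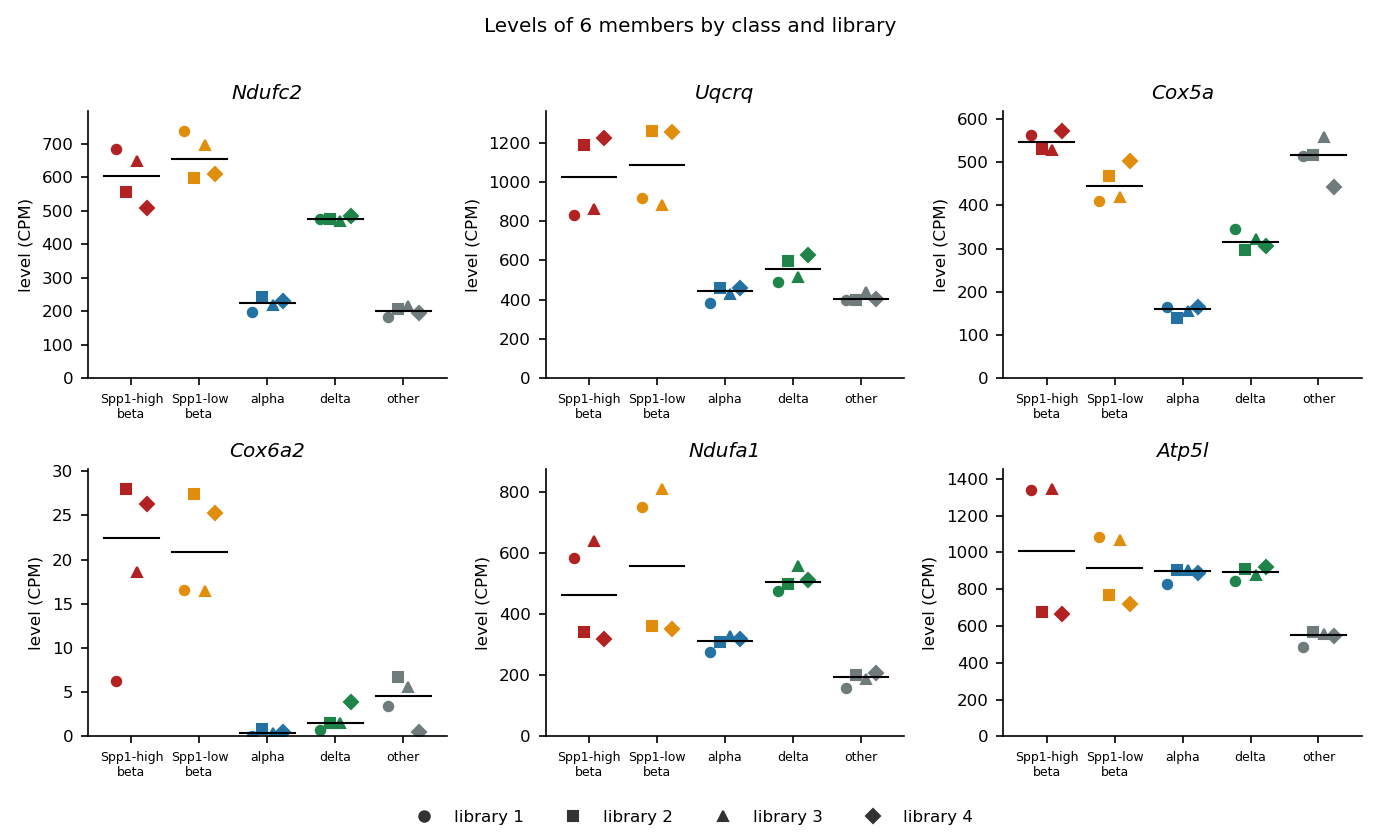
Level of 6 members (CPM, vertical axis from 0 in each panel) in the 5 classes. Each point is 1 library, marked by its shape, and each bar is the median over 4 libraries. Ndufc2, Uqcrq, Cox5a and Cox6a2 were higher in both beta classes than in alpha cells in every library with hormone genes outside the total, and Ndufa1 and Atp5l split by library in beta cells.

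Promoter sequences are shown for 4 members whose levels differ by class or by library, to set their sequence beside their levels. Each is the 250 bases before the start site that RefSeq gives on GRCm38.p6, written 5′ to 3′ on the gene's strand. Capitals mark a match on either strand to the NRF1 motif GCGCATGCG or the GABPA (ETS) motif CCGGAAGN. NRF1 and GABPA are transcription factors known to bind promoters of many respiratory chain genes.
Ndufc2, chr7:97399753-97400002, plus strand: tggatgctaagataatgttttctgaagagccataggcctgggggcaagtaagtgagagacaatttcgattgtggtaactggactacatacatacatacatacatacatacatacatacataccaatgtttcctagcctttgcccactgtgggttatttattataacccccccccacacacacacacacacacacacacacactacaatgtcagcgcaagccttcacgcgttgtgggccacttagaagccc
Ndufa1, chrX:37191239-37191488, minus strand: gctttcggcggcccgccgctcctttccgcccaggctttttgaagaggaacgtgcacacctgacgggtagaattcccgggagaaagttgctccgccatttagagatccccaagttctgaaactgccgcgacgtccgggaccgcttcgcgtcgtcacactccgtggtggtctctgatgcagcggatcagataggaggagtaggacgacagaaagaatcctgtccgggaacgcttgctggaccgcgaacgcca
Atp5l, chr9:44920743-44920992, minus strand: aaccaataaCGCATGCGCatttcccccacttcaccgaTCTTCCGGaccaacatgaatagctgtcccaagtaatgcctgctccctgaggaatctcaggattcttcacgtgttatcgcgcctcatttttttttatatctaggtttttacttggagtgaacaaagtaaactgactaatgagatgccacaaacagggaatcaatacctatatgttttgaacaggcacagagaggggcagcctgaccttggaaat
Ndufa11, chr17:56717512-56717761, plus strand: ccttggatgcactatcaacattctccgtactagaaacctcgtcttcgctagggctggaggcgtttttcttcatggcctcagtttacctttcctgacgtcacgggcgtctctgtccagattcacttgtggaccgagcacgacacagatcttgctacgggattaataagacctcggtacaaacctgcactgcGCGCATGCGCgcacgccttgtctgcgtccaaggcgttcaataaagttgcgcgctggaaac
The Ndufc2 and Ndufa1 stretches hold no match to either motif or to the YY1 motif AANATGGCN, Atp5l holds 1 NRF1 and 1 ETS match, and Ndufa11 holds 2 overlapping NRF1 matches, 1 on each strand. Ndufa11 was called higher in Spp1-low beta than in other cells, with log2 ratios of 1.14, 0.98, 1.01 and 0.86 in libraries 1 to 4. On the full total these ratios were 0.26, -0.01, 0.21 and 0.02. It was not called against alpha or delta cells.

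Promoters of 75 members were in the RefSeq table. In windows of 250 bases before to 50 after the start, and counting either strand, the NRF1 motif was found in 10 of the 75, 13.3%, against 1.95% of 27025 genes. The ETS motif was found in 19 members, 25.3%, against 9.90% of the genes, and the YY1 motif in 18 members, 24.0%, against 6.92%. A match is a string of letters and not a shown binding site. Members without an entry included Atp5a1, Atp5f1, Atp5mpl, Cox4i1, Cox4i2, Cox6a2, Cox6c, Cox8c, Ndufa2, Ndufa4l2, Ndufaf6, Ndufb9, Ndufs1, Sdhc, Uqcrb, Uqcrc2 and Uqcrq.

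Splitting beta cells by Spp1 gave no called member. Of 89 tested, none reached 1.5-fold in the same direction in all 4 libraries, against 0.136% of all genes higher and 0.0454% lower, and 0.389% higher among genes at 100 CPM or more. The direction of the set differed between libraries. In libraries 1 and 3, 71 and 69 of the 89 members were higher in Spp1-high cells, with medians of 0.14 and 0.13 on the log2 scale. In libraries 2 and 4, 11 and 4 of the 89 were higher, with medians of -0.13 and -0.11. The medians of all genes were -0.03, -0.05, -0.01 and -0.05 in libraries 1 to 4. When the full total was used, the members' medians were 0.40, -0.07, 0.30 and -0.05, with the same signs, and no member was called, against 0.121% of all genes higher and 0.0227% lower. Which genotype each library has is unknown, so the split cannot be set against Xbp1.

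Cox5a was higher in Spp1-high cells in every library, by log2 ratios of 0.45, 0.18, 0.32 and 0.18. It had 563, 531, 528 and 572 CPM in Spp1-high beta cells and 409, 469, 420 and 503 CPM in Spp1-low beta cells. The only other member above 0 in every library was Cox7a1, the muscle form of subunit 7A, at 6.01, 2.51, 8.57 and 2.25 CPM in Spp1-high cells, against 2.89, 1.60, 4.30 and 1.14 CPM in Spp1-low cells. Its values in the Spp1-high cells of libraries 2 and 4 were near the counting floor, so its sign there rests on few counts. Among all 13206 genes tested, 1044 were above 0 and 2719 below 0 in every library. The share above 0 was 2.25% of members and 7.91% of all genes, and the share below 0 was also smaller for the members. The 11 members below 0 in every library included Ndufa1, Ndufa9, Ndufaf4 and Ndufs4, with medians of -0.24, -0.22, -0.17 and -0.11. Ndufaf4 is an assembly factor of complex I, and Ndufa9 and Ndufs4 are accessory subunits. None of these reached 1.5-fold in every library. With hormone genes inside the total Cox5a and Cox7a1 stayed above 0 in every library, and of the 4 named here Ndufa1 stayed below 0 in every library and the others did not.

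**Figure D4:**
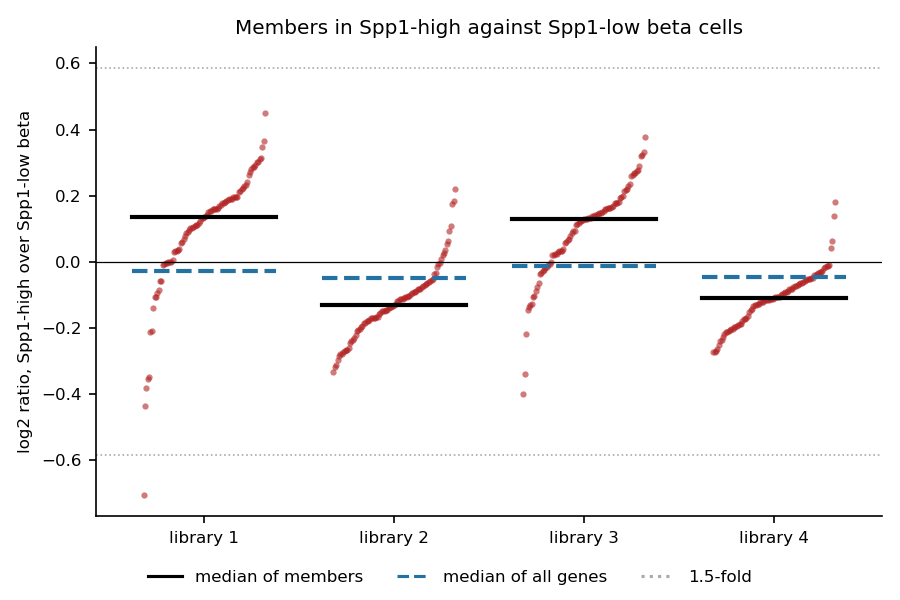
Log2 ratio of Spp1-high over Spp1-low beta cells for the 89 members tested, 1 column of points for each library. Solid bars are the members' medians, dashed bars those of all genes tested, and dotted lines mark 1.5-fold. Most points lie above 0 in libraries 1 and 3 and below 0 in libraries 2 and 4.

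With hormone genes outside the total, the share of members that ranged widely between libraries was below that of all genes in each class, and with them inside it, it was above that of all genes in Spp1-high and Spp1-low beta cells. In Spp1-high beta cells 17 of 89 members, 19.1%, ranged over 1.5-fold between the lowest and highest library, against 20.9% of all genes, although the median range was larger for the members, at 0.39 on the log2 scale, than for all genes, at 0.33. In Spp1-low beta cells it was 4 of 91, 4.40%, against 11.3%, and in alpha cells 1 of 87, 1.15%, against 6.96%. In delta cells it was 0 of 88, against 9.14%, and in other cells 3 of 90, 3.33%, against 26.4%. Without library 4 the counts were 11 in Spp1-high beta, 2 in Spp1-low beta and 0 in alpha cells, and without library 1 the alpha count was also 0. The shares of all genes are not given for these counts. On the full total 76 of 89 members ranged over 1.5-fold in Spp1-high beta cells, 85.4%, against 29.1% of all genes, and 17 of 91 in Spp1-low beta cells, 18.7%, against 10.8%. In other cells it was 12 of 90, 13.3%, against 21.9%, and none in alpha and delta cells, against 5.28% and 7.73% of all genes. Hormone genes took 35.0%, 55.9%, 36.6% and 54.8% of UMIs in the Spp1-high beta cells of libraries 1 to 4. This share scales every gene of the class on the full total. The added 10 CPM narrows the ranges of low genes, and no share is given for genes of the members' level, so these shares are not a background matched for level.

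The members of Spp1-low beta cells with such a range included Ndufa1, Ndufa3 and Atp5l. Ndufa1 had 584, 342, 638 and 318 CPM in Spp1-high beta cells and 750, 363, 810 and 353 CPM in Spp1-low beta cells. Libraries 1 and 3 were high. Its level was nearly the same across libraries in alpha cells, at 277, 308, 328 and 318 CPM.

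Atp5l, the g subunit of the ATP synthase membrane part, had 1339, 679, 1346 and 666 CPM in Spp1-high beta cells and 1085, 768, 1068 and 720 CPM in Spp1-low beta cells. Alpha cells had 829, 904, 902 and 891 CPM and delta cells 843, 909, 879 and 921 CPM. Libraries 1 and 3 were the high ones in both beta classes, and the libraries lay close together in alpha and delta cells. Ndufa3, an accessory subunit of complex I, had 144, 137, 184 and 116 CPM in Spp1-low beta cells, and libraries 1 and 3 were again the higher ones. The makeup of the libraries moved with these values, as did Ttr, at 3025, 541, 3196 and 367 CPM in Spp1-low beta cells. Their part in the values was not tested.

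Tissue forms of the complex IV subunits other than Cox6a2 were read at a low level, at most 21.2 CPM in any class and library. Cox4i2, the form of subunit 4 known from lung, had 0.875, 16.3, 1.38 and 21.2 CPM in other cells and at most 2.23 CPM in the endocrine classes. In cells with endothelial markers it had 3.71, 25.2, 1.53 and 13.7 CPM, from 6, 29, 3 and 8 UMIs. In cells with under 3 markers or with tied lists it had 1.07, 31.5, 3.47 and 18.2 CPM, from 4, 21, 11 and 6 UMIs. The second group was the higher one in libraries 2, 3 and 4 and the lower one in library 1. Cells with mural markers were too few in each library to be measured. Which cells the Cox4i2 reads came from was not tested. Cox6b2 had 3.38, 6.35, 4.37 and 7.93 CPM in other cells and 0.563 to 2.40 CPM in Spp1-low beta cells. Ndufa4l2, an NDUFA4-like protein known to be induced by low oxygen, had 2.51, 3.34, 4.20 and 2.00 CPM in Spp1-high beta cells, 5.94, 2.51, 6.50 and 2.58 CPM in Spp1-low beta cells and 6.45, 11.1, 2.56 and 15.4 CPM in other cells. The testis and muscle forms Cox7b2, Cox8b and Cox8c were not tested, with 49, 3 and 2 UMIs in all classes. The widely expressed partners Cox4i1, Cox6b1, Cox7a2, Cox7b and Cox8a were read in every class and library, Cox4i1 at 449 to 755 CPM.

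No complex II subunit was called between Spp1-low beta and alpha cells. Sdhb, the iron-sulfur subunit, had 127, 133, 132 and 134 CPM in Spp1-low beta cells and 79.9, 80.5, 73.7 and 89.1 CPM in alpha cells, without overlap. Its log2 ratios of 0.61, 0.66, 0.76 and 0.54 were past 1.5-fold in libraries 1 to 3 but not in library 4, and their median of 0.63 lay above that of all members. Sdha, the flavoprotein subunit, had 110, 103, 105 and 99.9 CPM in Spp1-low beta cells and 79.9, 76.2, 88.0 and 79.4 CPM in alpha cells. Sdhc and Sdhd, the membrane anchors, overlapped between these classes, at 74.9 to 98.4 and 68.5 to 95.9 CPM in Spp1-low beta cells, against 68.3 to 90.3 and 83.9 to 92.2 CPM in alpha cells. Scaled to the full total, Sdhb had log2 ratios of 0.16, 0.00, 0.43 and -0.11 against alpha cells and Sdha was below 0 in every library.

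The mixed class was divided by marker lists, a cell being placed with a type when at least 3 of its markers were detected and more than of any other type. Only groups of at least 50 cells in a library were measured. The summed level of the members was 21578 to 22264 CPM in cells with ductal markers, 20254 to 23059 in those with T cell markers, 21556 to 22088 in fibroblast-marker cells and 19831 to 21599 in macrophage-marker cells. It was 17627 to 18882 CPM in B cell, 15979 to 17401 in endothelial and 15102 to 16390 in dendritic cells so defined. In libraries 2 and 4 the cells with ductal markers had 24.1% and 27.4% of their UMIs from Ppy, the hormone of a further endocrine cell type, and only 86 and 58 such cells. Taking cells with at least 3% Ppy UMIs as a group of their own, a choice made after the data were seen, gave 131 cells with 22152 and 21359 CPM in libraries 2 and 4. It left 24 and 10 cells with ductal markers in those libraries, too few to be measured. The ductal-marker cells of libraries 1 and 3 then had 21531 and 22243 CPM. Cox5a reached 922, 950 and 1048 CPM in macrophage-marker cells of libraries 1 to 3. Cox6a2 had 17.1, 40.5, 23.7 and 0 CPM in the 748 cells with under 3 markers or with tied lists. All these sums lay below the 29585 CPM or more of Spp1-low beta cells.

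**Figure D5:**
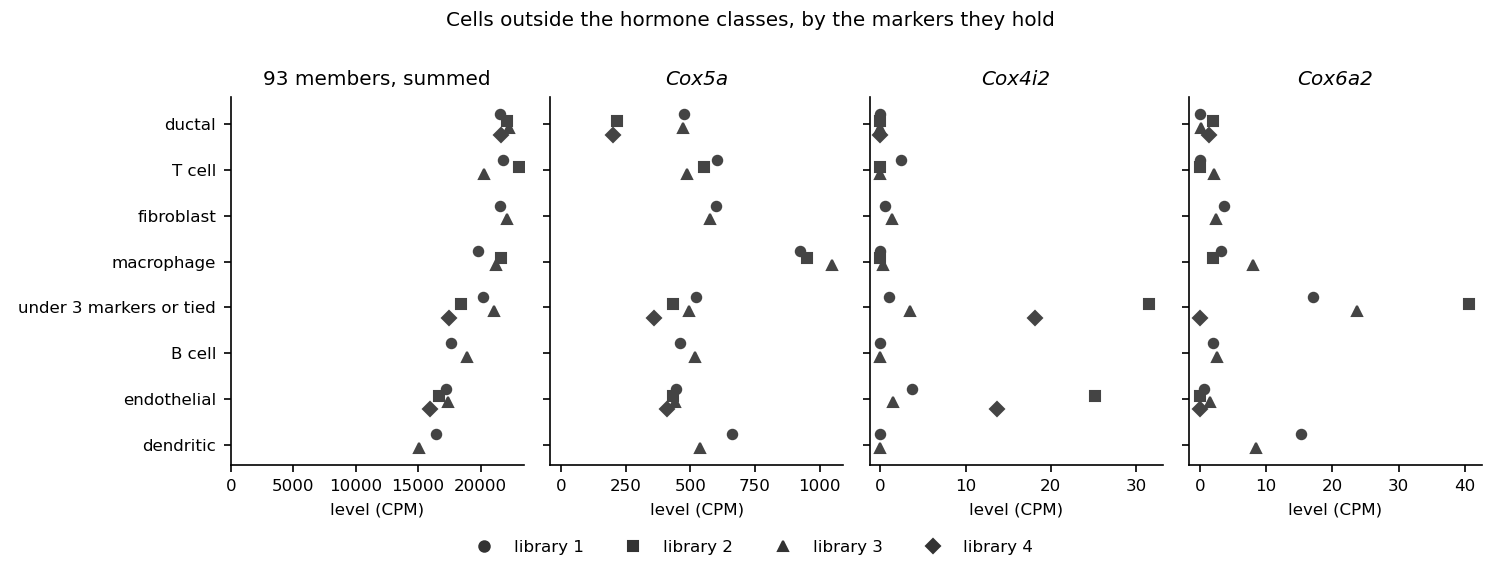
Summed level of the members (CPM, axis from 0) in groups of cells outside the 3 hormone classes, by marker list, with 1 point for each library that had at least 50 such cells. The other panels give the level of Cox5a, Cox4i2 and Cox6a2 in the same groups. Sums ran from 15102 to 23059 CPM over the groups with a marker name.

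Genes that work with the complexes gave a mixed pattern. The 13 subunits from mitochondrial DNA had median log2 ratios of -0.65, -0.37, -0.58 and -0.23 in Spp1-low beta cells against alpha cells, with none called, whereas the nuclear members were at 0.43, 0.36, 0.46 and 0.24. When the full total was used, the mitochondrially encoded genes were at -1.13, -1.09, -0.92 and -0.92, with 10 of the 13 called lower, and the nuclear members were at -0.02, -0.27, 0.14 and -0.33. Their summed level was 39153, 49801, 38347 and 45817 CPM in Spp1-low beta cells, 52938, 58971, 54895 and 51121 CPM in alpha cells and 28052, 25711, 28617 and 22815 CPM in delta cells. Against delta cells the medians were 0.49, 0.97, 0.39 and 1.00, and mt-Co1, which encodes the catalytic subunit of complex IV, was called higher in beta cells. Against other cells they were 0.94, 0.50, 0.61 and 0.38, with mt-Cytb called higher. Inside that larger total the medians were -0.05, 0.22, -0.06 and 0.28 against delta cells and 0.04, -0.51, -0.19 and -0.50 against other cells, and none was called. Mitochondrial UMIs also entered the cell filter.

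Of the 8 electron carriers and exchange proteins, 3 were called higher in beta than in alpha cells, cytochrome c (Cycs) and the outer membrane channels Vdac1 and Vdac3, and the list's medians were 0.75, 0.80, 0.76 and 0.79, or 0.27, 0.10, 0.43 and 0.09 with none called when hormone genes were inside the total. Vdac1 was also called higher against delta cells. The list also holds Cyc1, the cytochrome c1 gene of complex III, which the symbol rule left out of the members. Cycs had 410, 411, 377 and 432 CPM in Spp1-low beta cells and 196, 210, 186 and 244 CPM in alpha cells. Of 16 tricarboxylic acid cycle genes, 1 (Fh1) was called higher against alpha and delta cells and 2 (Fh1 and Ogdh) against other cells. Of 20 assembly factors of complexes III to V, Sco2 was called higher against alpha cells, Sdhaf4 lower against delta cells and Uqcc2 and Surf1 higher against other cells.

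Of 15 glycolysis genes, Hk1, a hexokinase, was called lower in Spp1-low beta than in alpha cells, at 0.802, 0.989, 1.20 and 0.569 CPM against 36.2, 24.96, 29.98 and 27.0 CPM in alpha cells. Ldha, the lactate dehydrogenase A gene, was called lower against delta cells, and Hk1, Hk2 and Ldha were called lower against other cells. Of 11 regulators, Tfam, which maintains mitochondrial DNA, was called higher against alpha cells and Nrf1 against delta and other cells. With hormone genes inside the total, Fh1 stayed higher and Hk1 lower against alpha cells, Sdhaf4 and Ldha stayed lower against delta cells, and Hk1, Hk2 and Ldha stayed lower against other cells. The calls of Sco2 and Tfam against alpha cells, of Fh1, Vdac1 and Nrf1 against delta cells, and of Fh1, Ogdh, Uqcc2, Surf1 and Nrf1 against other cells were lost. On that total Cs, the citrate synthase gene, and Suclg2 were called lower against delta cells. Against other cells 10 further genes were called lower, which were Cs, Idh3b, Mdh2 and Pdha1 of the tricarboxylic acid cycle list, Slc25a5 and Vdac2 of the exchange list, Sco2, Gpi1, Eno1 and Gabpa. The shares of all genes called are those given above for each comparison and each total.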

How the data were processed

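Droplet single-cell RNA sequencing was deposited as 1 pooled matrix of raw UMI counts per gene and cell barcode, made with Cell Ranger 6.1.2 per the file headers, and aligned to mm10 per the submitters' processing notes; the sources used here do not name an annotation. The authors' cell types and a map of barcode suffixes to samples were not used here. Counts were summed by class and library in Python 3.11.15 (numpy 2.4.6, scipy 1.17.1, pandas 2.3.3), scaled to CPM without 7 hormone genes (Ins1, Ins2, Gcg, Sst, Ppy, Pyy and Iapp), and compared within each library as log2 ratios after adding 10 CPM to both values. Ratios of low genes are understated by it. Genes were tested with at least 10 UMIs in either class of every library, and all listed genes were run by the same rule, which was tried on simulated counts. No doublet caller was run. No p-value was computed, since no library could be placed in a genotype. Whether the samples come from separate mice is not stated.

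Genes were named by rule: tissue forms of a subunit, all Sdh members, up to 5 members each way with the largest median ratio of constant sign and at least 50 UMIs, the 4 with the widest range across libraries, and the extremes of level in each complex. Members and lists were chosen with earlier results of these data known. Positions are from GENCODE M21 (GRCm38), where all 93 members were found, and promoters from RefSeq. Other settings, 13 in kind, changed the total, the averaging, the pseudocount, cell filters, thresholds and libraries. Some genes that the rule names are not reported here.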

Additional observations from a re-analysis of the deposited data

Results flagged for a closer look

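Cells past more than 1 hormone threshold were outside every class. Their members summed to 29275.9, 28506.1, 29367 and 28990.3 CPM in libraries 1 to 4, within the range of the delta sums. They numbered 631, or 3.91% of the kept cells. Whether they are doublets was not tested.

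Barcodes removed by the cell filter gave members' sums of 6227.11, 11808.4, 6876.97 and 6340.37 CPM in libraries 1 to 4. Summed in each library, these 3841 barcodes held 424022 to 616927 CPM of mitochondrially encoded RNA, which lowers every other share of the summed total. Single barcodes differed: the median mitochondrial share was 38.2%, 2.33%, 71.2% and 50.5% in libraries 1 to 4. Library 2 held 2222 of the barcodes. Their medians there were 244 genes, 29.0% of UMIs from Ins2 and 2.13% of non-hormone UMIs from the members.

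Genes of the same complexes that the symbol rule left out were also read. Ndufb1-ps, left out for the ending of its symbol, had a median over the libraries of 457.131 CPM in Spp1-high beta cells. It had 439.98 in Spp1-low beta, 381.678 in alpha, 451.551 in delta and 258.814 CPM in other cells. Atpif1, the inhibitor of the ATP synthase, had 474.544, 494.633, 457.939, 564.851 and 322.873 CPM in the same classes.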

How the results depend on the processing

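Of 754 values recomputed for 57 results, 667 stayed within the limits set for a change, 84 moved past them and 3 reversed. The 3 that reversed were the members' medians for Spp1-low beta cells with the 7 hormone genes kept in the total: -0.15 against alpha (0.40 as reported), -0.52 against delta (0.05) and -0.27 against other cells (0.49). That total is larger in the class with more hormone RNA. With it the summed levels were 16696 CPM in Spp1-high beta, 14418 in Spp1-low beta, 16088 in alpha, 20903 in delta and 18019 in other cells, against 30153, 30314, 22597, 28501 and 19566 as reported. Members called higher were then 3 against alpha, 1 against delta and 0 against other cells, and those called lower 1, 5 and 6. Called ranges across libraries became 76 in Spp1-high beta, 17 in Spp1-low beta, 0 in alpha and 12 in other cells, against 17, 4, 1 and 3 as reported.

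With mitochondrially encoded genes left out of the total the sums were 31725 CPM in Spp1-low beta, 23962 in alpha and 20232 in other cells. The mean of each cell's CPM gave 20608 in alpha and 18509 in other cells, medians of 0.51 against alpha and 0.62 against other cells, and called ranges of 27 in Spp1-high beta, 7 in Spp1-low beta, 1 in delta and 5 in other cells. A pseudocount of 1 CPM gave ranges of 10 in Spp1-low beta, 4 in alpha, 4 in delta and 5 in other cells, and 1 member called lower against other cells. The Spp1 split at 0.25% gave ranges of 11 in Spp1-high and 2 in Spp1-low beta, and at 1% 7 in Spp1-low beta. Stricter cells (1000 genes and 10% mitochondrial UMIs) gave 0 in alpha, and leaving out the 6% deepest cells gave 1 in delta. At a threshold lower than 1.5-fold, members called higher were 37 against alpha, 7 against delta and 50 against other cells, those called lower were 1 against alpha and 1 against delta, and ranges were 58 in Spp1-high beta, 21 in Spp1-low beta, 7 in alpha, 12 in delta and 21 in other cells. Among members at 100 CPM or more, chosen after the data were seen, 1 was called higher against delta. Leaving out 1 library at a time gave ranges of 11 to 15 in Spp1-high beta, 2 to 4 in Spp1-low beta and 0 to 1 in alpha cells; the lowest came without library 4, and in alpha cells also without library 1. It gave 15 to 17 called higher against alpha, 2 to 3 against delta and 27 to 29 against other cells, and a median of -0.11 to 0.13 for Spp1-high against Spp1-low beta cells. The shares of all genes called under these settings are not given, so the counts show how far the calls move and not whether they differ from the background. The causes were not tested. No paired analysis was possible between genotypes because no library could be placed in one; cell classes were compared within each library, and no test over the 4 libraries was made, since they are not known to be replicates of 1 group. Depth limits the forms read at a few UMIs (Cox8b, Cox8c, Cox7b2).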

Other observations

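Fh1, the fumarate hydratase of the tricarboxylic acid cycle, differed between libraries in beta cells; it lies on chromosome 1 (175600374 to 175625635, minus strand, GRCm38). It was singled out after its values were seen. Fh1 had 56.0, 206, 50.6 and 236 CPM in the Spp1-high beta cells of libraries 1 to 4 and 73.6, 313, 62.6 and 355 CPM in Spp1-low beta cells. Alpha cells had 23.1, 53.5, 27.4 and 55.5 CPM, delta cells 34.2, 61.4, 30.1 and 57.0 CPM, and other cells 25.3, 53.8, 27.5 and 52.4 CPM. Libraries 2 and 4 were the high ones in each of the 5 classes.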
